A study of Talpa occidentalis with 24 samples.

Results

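Mouse testis-only active enhancers are stretches of chromatin called active enhancer in the fetal testis and in no active state in the fetal ovary. The members are active enhancer segments of the testis on chromosomes 1 to 19 that measure 400 bp or longer. They are separated by over 2 kb from every promoter and bivalent promoter segment of either gonad, and none of their bases is promoter or active enhancer in the ovary. The members were thus chosen by the measured states of both gonads, and the rule found 56931 of them. The testis has 260381 active enhancer segments on these chromosomes, of which 201241 reach 400 bp and 152139 also meet the distance rule and are called distal here. Of those distal segments 37.4% had no active ovary base, which is the rule itself and is given as a description. The other 95208 are called shared below.

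The study profiled histone marks by chromatin immunoprecipitation with sequencing (ChIP-seq) in gonads of the Iberian mole, Talpa occidentalis, and of the mouse. Per the labels' protocols, mouse gonads came from embryos at stage E13.5 and mole gonads from animals at postnatal day 7, and whole gonads were fixed and sheared. The antibodies were against H3K4me3, H3K4me1, H3K27ac and H3K27me3. The mouse data are 2 segmentations, 1 of testis and 1 of ovary, named so in their track lines, and each gives every 200 bp bin 1 of 7 chromatin states. They belong to no library listed with the series, and the sources used here do not give the genotype, the strain or the number of mouse libraries. The 24 labelled libraries are wild-type mole gonads, with 8 for each of the testis, the testicular part and the ovarian part of the ovotestis.

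Enhancers are stretches of DNA away from gene starts that raise the transcription of genes, often over long distances. Nucleosomes at enhancers carry H3K4me1, and those at enhancers in use also carry H3K27ac, while H3K27me3 is laid down by Polycomb complexes at silenced genes and elements. At the fetal stage used here the testis already holds Sertoli cells in cords around the germ cells, with Leydig cells between the cords, and the ovary follows its own programme. An element active in 1 gonad can therefore lie in a cell type that the other gonad lacks.

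With 1 segmentation per gonad there is no replicate, the depth is unknown, and no difference between testis and ovary was tested. Intervals in brackets are Wilson 95% intervals. They cover the counting of regions and nothing of the spread among animals or libraries. The regions are not independent of each other, since neighbours share the same libraries. Whole gonads were used, so fewer cells of a type and a weaker mark per cell cannot be told apart. The tissue labels could be checked by chromosome Y, which lay outside the gap state over 7.17% of its bases in the testis and 1.17% in the ovary. Testis cell types could not be checked by marker genes, because no gene annotation of the mouse build was used here.

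Testis-only enhancers were short. Their length averaged 736 ± 444 bp (SD, n = 56931) with a median of 600 bp, against 1373 ± 1151 bp and a median of 1000 bp for the 95208 shared testis enhancers. The ovary-only enhancers found by the mirrored rule averaged 837 ± 576 bp (SD, n = 65056), also with a median of 600 bp. At the minimum of 400 bp stood 21625 testis-only enhancers (38.0%), against 16.8% of shared ones. At the other end 1554 members (2.73%) reached 2 kb, against 21.3% of shared enhancers. The set is thus made up largely of elements of 2 to 4 bins.

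The share of distal testis enhancers without an active ovary base fell with length. It was 57.4% [56.9 to 57.9] among the 37666 segments of 400 bp. It was 31.8% [31.2 to 32.4] at 1000 to 1200 bp and 2.44% [2.13 to 2.79] among the 8488 segments of 3 kb or longer. A longer segment has more bases that can meet an active ovary base, so part of this slope is built into the rule. Ovary enhancers gave the same slope at a higher level, with 69.6% ovary-only at 400 bp and 5.70% at 3 kb or longer. Counted by bases, which removes the advantage of long segments, 44.1% of the 172.6 Mb of distal testis enhancer was not active in the ovary. The same share was 55.9% of 201.2 Mb for the distal enhancers of the ovary in the testis.

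**Figure D1:**
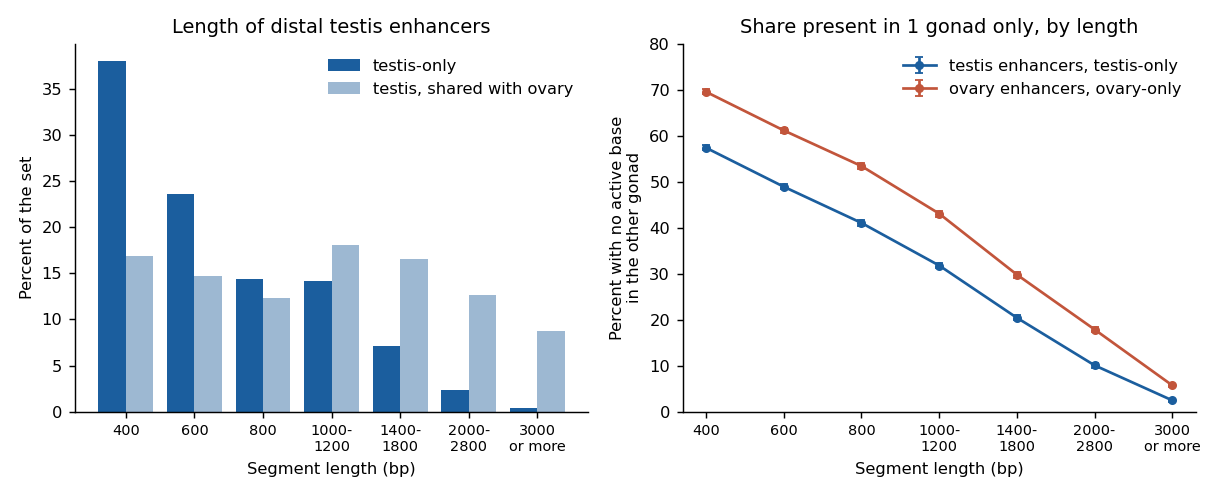
Left, the percent of testis-only and of shared distal testis enhancers in each length class in bp. Right, the percent of distal enhancers of each gonad with no active base in the other gonad, with Wilson 95% intervals. Testis-only enhancers peak at the minimum of 400 bp with 38.0% of the set, and the share present in the testis only declines to 2.44% at 3 kb or longer.

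The ovary held more active enhancer state than the testis, which bears on every such count. Active enhancer covered 10.3% of chromosomes 1 to 19 in the testis and 12.8% in the ovary. Among distal enhancers 37.4% were testis-only in the testis [37.2 to 37.7] and 44.7% were ovary-only in the ovary, 65056 of 145452. The excess of the ovary-only share was present on each of the 19 chromosomes. Chromosome 19 alone had more testis-only than ovary-only enhancers, 1652 against 1587.

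The ovary state under testis-only enhancers was most often poised enhancer, a state that the authors name and whose marks the sources used here do not define. Of the 41.9 Mb in testis-only enhancers, 45.9% was poised in the ovary, 38.9% was undefined and 15.2% was Polycomb repression. The rule bars active enhancer and promoter from these bases, and its distance bars bivalent promoter, so the shares are to be read against other distal bases. Among distal bases active in neither gonad and outside the gap state, 17.9% were poised in the ovary, 45.7% undefined and 36.4% Polycomb. Relative to these, testis-only enhancers held 2.57 times the poised share, 0.850 times the undefined share and 0.419 times the Polycomb share. Places active in the testis alone were thus, in the ovary segmentation, richer in poised and poorer in Polycomb state than distal bases active in neither gonad. Against shared testis enhancers the order was reversed. Of their bases not active in the ovary, 23.4 Mb were poised, 9.07 Mb undefined and 1.74 Mb Polycomb. Members held 19.2 Mb poised, 16.3 Mb undefined and 6.39 Mb Polycomb. Each shared enhancer holds active ovary state by definition, so those bases lie in segments with active ovary bases.

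The mirrored set looked alike. Of the bases of ovary-only enhancers 49.0% were poised in the testis, 37.9% undefined and 13.1% Polycomb, which is 2.76, 0.795 and 0.380 times the shares of distal bases active in neither gonad. The Polycomb share was 15.2% for the testis-only set in the ovary and 13.1% for the ovary-only set in the testis. Polycomb state covered 25.5% of chromosomes 1 to 19 in the testis and 26.5% in the ovary. Polycomb, poised and undefined state were all broken into short pieces, each with a median segment of 400 bp in each gonad. A call of any of these states over a single enhancer thus rests on few bins.

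**Figure D2:**
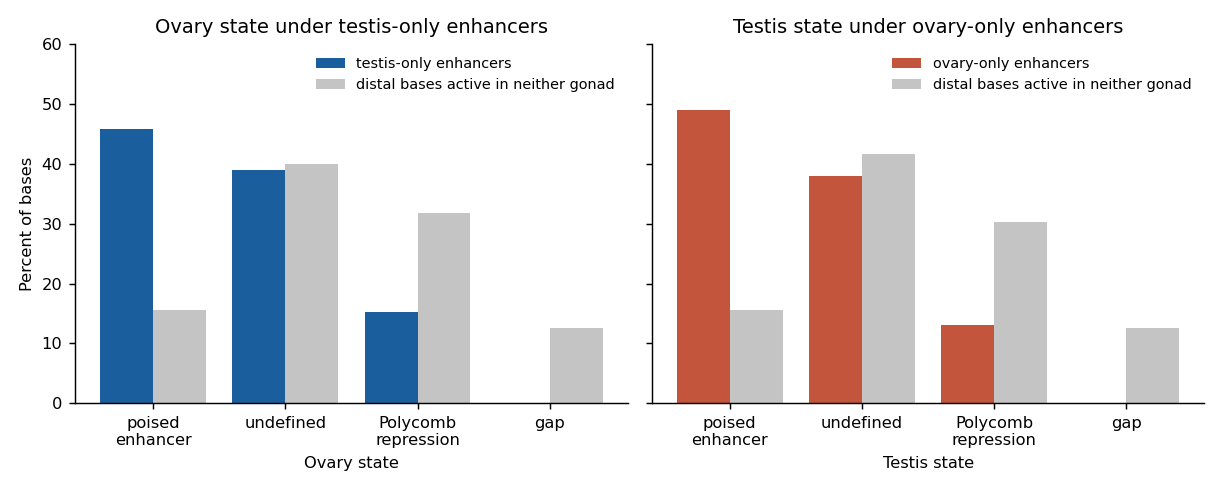
Percent of bases in each state of the opposite gonad, left for testis-only enhancers in the ovary and right for ovary-only enhancers in the testis, beside distal bases that were active in neither gonad (grey, gap included). In each panel the poised bar of the enhancers stands far above the grey bar, 45.9% against 15.6% on the left, and the Polycomb bar stands below it, 15.2% against 31.8%.

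Single members fell into classes by the ovary state that covered more than 50% of their length. The poised class held 24337 members (42.7% [42.3 to 43.2]), the undefined class 17232 (30.3%) and the Polycomb class 4518 (7.94%). No state passed 50% in the remaining 10844 members (19.05%). In 18015 members every base was poised in the ovary, and in 2317 every base was Polycomb. Polycomb state reached at least 1 bin of 19251 members (33.8%), so it touched many more members than it dominated. The ovary-only set, judged in the testis, was similar, with 47.7% in the poised, 29.25% in the undefined and 5.96% in the Polycomb class. In that set 35.8% were wholly poised and 2.65% wholly Polycomb, against 31.6% and 4.07% of testis-only members. At least 1 Polycomb bin was found in 33.2% of it. Short members are covered whole by a single state more easily than long ones.

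The classes differed in where they lay. Members of the Polycomb class were a median of 29.6 kb from the nearest promoter or bivalent promoter and 3.6 kb from the nearest active ovary segment. The poised class lay 24.6 kb and 1.2 kb away, and the undefined class 20.8 kb and 1.8 kb. Long members were most frequent in the undefined class, where 3.94% reached 2 kb, against 2.17% of the poised class and 0.930% of the Polycomb class. With rising length the poised share of member bases decreased, from 51.9% at 400 bp to 31.2% at 3 kb or longer, while the undefined share was 32.5% and 52.6% at these lengths. The Polycomb share of bases stayed between 14.1% and 16.1% in all 7 length classes, so the low value of the Polycomb class was not matched by bases.

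The distance from testis-only enhancers to active ovary chromatin was close to that of the mirrored set. The nearest active ovary bin was a median of 1.8 kb away, and 14.2 kb bounded the nearest 90% of members. It adjoined the member in 7247 cases (12.7%) and lay within 1 kb in 23574 (41.4%) and within 10 kb in 48610 (85.4%). For ovary-only enhancers the nearest active testis bin was a median of 2 kb away, within 1 kb in 36.4% and within 10 kb in 85.3%. Members that adjoined active ovary chromatin were 65.9% poised and 6.43% Polycomb in the ovary. Members more than 10 and up to 50 kb away were 44.8% poised and 21.6% Polycomb, and the 877 beyond 50 kb were 41.0% poised and 24.6% Polycomb. The Polycomb share thus rose with every step of distance from active ovary chromatin. Where an active ovary base within 1 kb was also barred, 35465 members were left, 23.3% of the distal testis enhancers.

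In the testis the members were bordered by poised enhancer state. The first 200 bp bin outside the edge was poised in 87.0% of cases and undefined in 12.8%, and both sides were poised for 43473 members (76.4%). A member ends where active state ends, and the distance rule bars promoter and bivalent promoter state from this bin. It could thus only be poised, undefined, Polycomb or gap, and the active share rises from the edge by construction. Of all distal bases not active in the testis 18.5% were poised, 40.8% undefined, 28.8% Polycomb and 11.8% gap. For shared testis enhancers both sides were poised in 83.1%, and for ovary-only enhancers, judged in the ovary, in 65.7%. The border was narrow. At 1 kb from the edge 35.2% of testis bins were poised and 16.5% active, and at 10 kb 25.8% and 15.8%. Around shared enhancers the testis was active in 30.9% of bins at 1 kb and 27.02% at 10 kb. Testis-only enhancers thus sat in surroundings with less active state than shared ones. Both lay above the 10.3% of chromosomes 1 to 19 that was active enhancer in the testis. Around ovary-only enhancers the ovary was active in 17.1% of bins at 1 kb and 21.1% at 10 kb, against 12.8% of these chromosomes.

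The poised border of the testis had a weaker counterpart in the ovary at the same places. Ovary bins 200 bp outside testis-only enhancers were poised in 40.3% of cases, against 21.8% at 10 kb. Active ovary state went the other way, with 6.67% of bins at 200 bp, 13.97% at 1 kb and 16.7% at 10 kb. The rule bars active ovary state from the members, and states run over neighbouring bins, so a low value beside the edge is built in. Beside ovary-only enhancers the active share of the testis had the same form, with 5.54% at 200 bp, 11.04% at 1 kb and 14.96% at 10 kb. At 10 kb from testis-only enhancers the active share was 15.8% in the testis and 16.7% in the ovary.

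**Figure D3:**
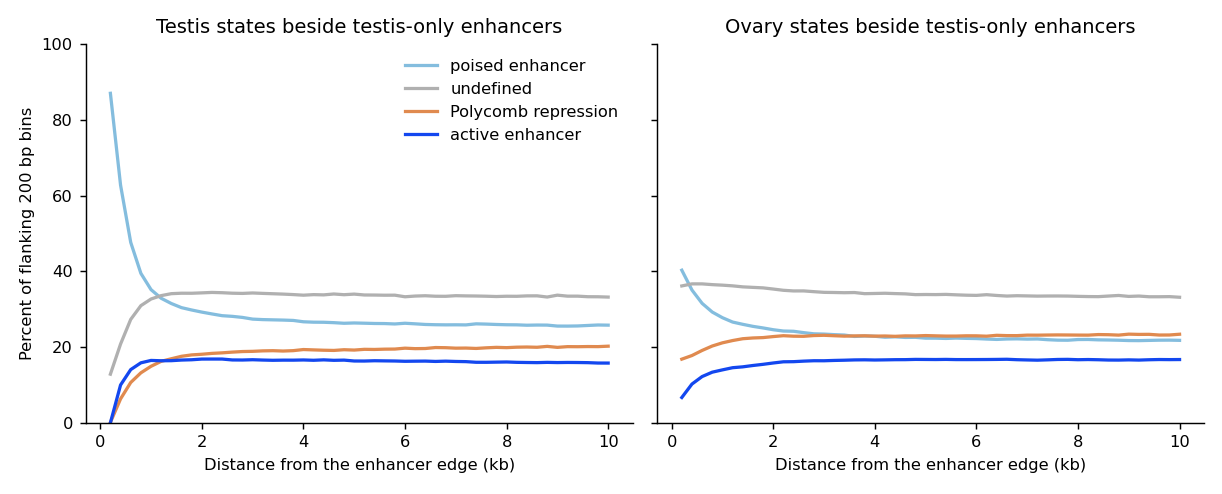
Percent of 200 bp bins in each state by distance in kb from the edge of testis-only enhancers, with testis states on the left and ovary states on the right, both flanks joined. Poised enhancer state falls off steeply in the testis, with 87.0% of bins at 200 bp and 35.2% at 1 kb, and more weakly in the ovary.

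Testis-only enhancers lay farther from promoters than shared ones. The median distance to the nearest promoter or bivalent promoter was 23.8 kb for members, 14.2 kb for shared testis enhancers and 21.4 kb for ovary-only enhancers. Beyond 100 kb lay 13.99% of members and 5.52% of shared enhancers. Read the other way, the testis-only share of distal testis enhancers was 27.6% [27 to 28.1] at 2 to 5 kb, 39.7% [39.2 to 40.2] at 20 to 50 kb and 60.2% [59.4 to 61.1] beyond 100 kb. It was higher in each class of distance than in the class before. The slope was also present at an equal length of 400 bp, and within the open class of 2 kb or longer, where length still varied. Within segments of 400 bp the share was 47.9% at 2 to 10 kb, 56.8% at 10 to 50 kb and 70.1% beyond 50 kb. Within segments of 2 kb or longer it was 5.09%, 7.25% and 14.3% at the same distances. Near promoters the ovary-only share of ovary enhancers stood above the testis-only share, 37.4% at 2 to 5 kb, while beyond 100 kb it was 60.7%, within the interval of the testis value.

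Each chromosome carried testis-only enhancers at a similar density. The lowest was 23.1 per Mb outside the gap state on chromosome 7, the median 25.6 and the highest 30.1 on chromosome 19. The testis-only share of distal testis enhancers was lowest on chromosome 11 with 31.8% [30.8 to 32.7] and highest on chromosome 3 with 41.8% [40.8 to 42.9]. Chromosome 11 also had the densest distal testis enhancers, 80.6 per Mb, and chromosome 3 the sparsest, 59.0 per Mb. The Polycomb share of member bases in the ovary varied little, between 14.01% and 16.6%.

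**Figure D4:**
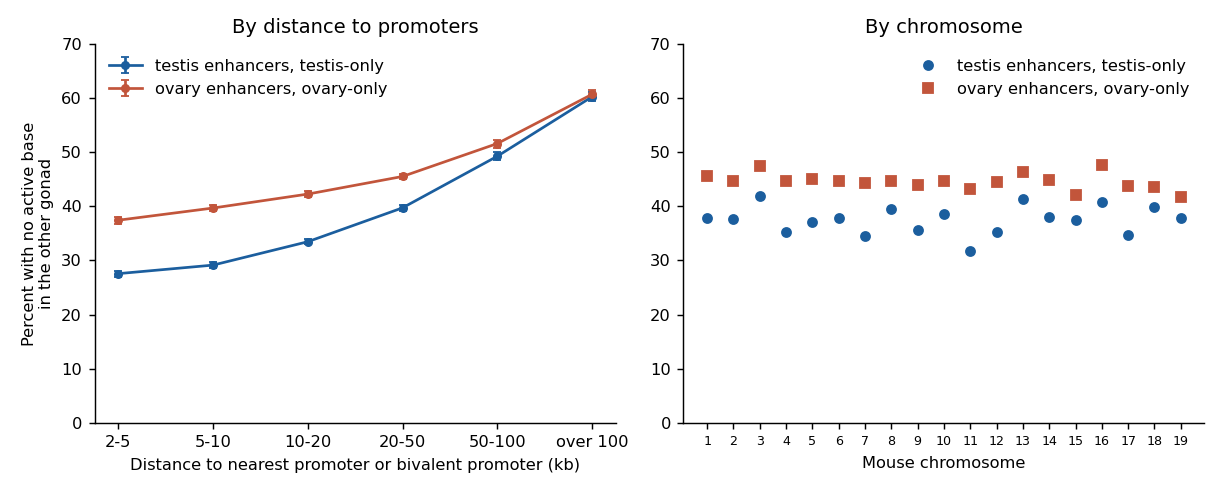
Percent of distal enhancers of each gonad with no active base in the other, left by distance in kb to the nearest promoter or bivalent promoter (bars are Wilson 95% intervals) and right by mouse chromosome. The testis share climbs from 27.6% at 2 to 5 kb to 60.2% beyond 100 kb, and on all 19 chromosomes the ovary point lies above the testis point.

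Testis-only enhancers more often than shared ones had a nearest testis promoter that lacked promoter state in the ovary. For each enhancer the nearest testis promoter of at least 400 bp was taken. It lay a median of 57 kb from members and 30.6 kb from shared enhancers, and over 100 kb from 34.7% and 18.9% of them. The promoter was called testis-only when none of its bases was promoter in the ovary, whatever other state they held there. That held for 23792 members (41.8% [41.4 to 42.2]), and for 33.2% [32.9 to 33.5] of shared testis enhancers. Of all 18144 such testis promoters 30.6% had no promoter base in the ovary. The gap between the sets was widest close to the promoter, with 41.7% for members and 29.2% for shared enhancers within 10 kb, and narrower beyond 100 kb, with 42.8% and 39.0%. By ovary class it was 46.4% in the Polycomb class, 43.1% in the poised class and 37.8% in the undefined class. For ovary-only enhancers the mirrored share was 38.9%, against 35.9% of distal ovary enhancers shared with the testis and 31.8% of all ovary promoters. The shares of all promoters count each promoter singly, whatever the number of enhancers nearest to it. The shares of enhancers count a promoter again for every enhancer nearest to it, so their intervals are too narrow even for counting. Promoters and enhancers come from the same pair of segmentations, so these shares are not independent of the choice of members.

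Testis-only enhancers were less grouped than shared ones. Another member lay within 12500 bp of 36235 (63.6% [63.3 to 64.0]), with a median distance of 7.2 kb between neighbours. Another shared enhancer lay within that distance of 85.6% of shared testis enhancers, with a median of 1.2 kb, and the set of shared enhancers is larger. For ovary-only enhancers the values were 67.5% and 6.0 kb. Joined at 12500 bp, the members formed 33025 groups, of which 20696 held 1 member. Groups of 5 or more numbered 1368 and took in 8976 members (15.8%). Grouping depended on the length limit: of the 13645 members of at least 1000 bp, 26.8% had another within 12500 bp.

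The group with most members, 27, lay on chromosome 19 at chr19:17792001-17906000 and spanned 114 kb with 22200 bp in members. The next held 24 members at chr5:103037201-103123000, with 32600 bp in members over 85.8 kb, and the third 23 members at chr16:72811401-72928600. Coordinates are those of the files, counted from 1, in the mouse build mm9 that the submitters' processing notes name. No genes are named for these places, because no mouse annotation was used here.

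In windows of 100 kb, testis-only enhancers were spread widely but unevenly. Of 23439 windows with under 50% gap state in each gonad, 17627 (75.2%) held at least 1 member, and the median window held 2. At least 5 members were found in 4001 windows. In 323 of those (8.07%) there was no ovary-only enhancer. At least 1 ovary-only enhancer was found in 85.6% of the windows with a member, and in 78.1% of all windows. Of the 5210 windows with at least 5 ovary-only enhancers, 509 (9.77%) held no testis-only one.

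The window with most testis-only bases was chr5:103100001-103200000. Members covered 27000 bp of it, beside 1 ovary-only and 4 shared enhancers. Active enhancer state took 38% of the window in the testis and 8.6% in the ovary, poised state 41% and 32.4%, and Polycomb state 6% and 25.2%. Of the 20 members that touched the window, 19 lay inside it. The longest of these was 3600 bp, at chr5:103114401-103118000, and in the ovary it was 44.4% Polycomb and 22.2% poised. At chr5:103180001-103182000 a member of 2000 bp was poised over its whole length in the ovary. On the start side the 10 members inside the window were centred 28.1 to 46.7 kb from its centre, and on the end side 9 were centred 13.8 to 46.3 kb away. A promoter state between them covered 1.6% of the window in the testis and 0.8% in the ovary.

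**Figure D5:**
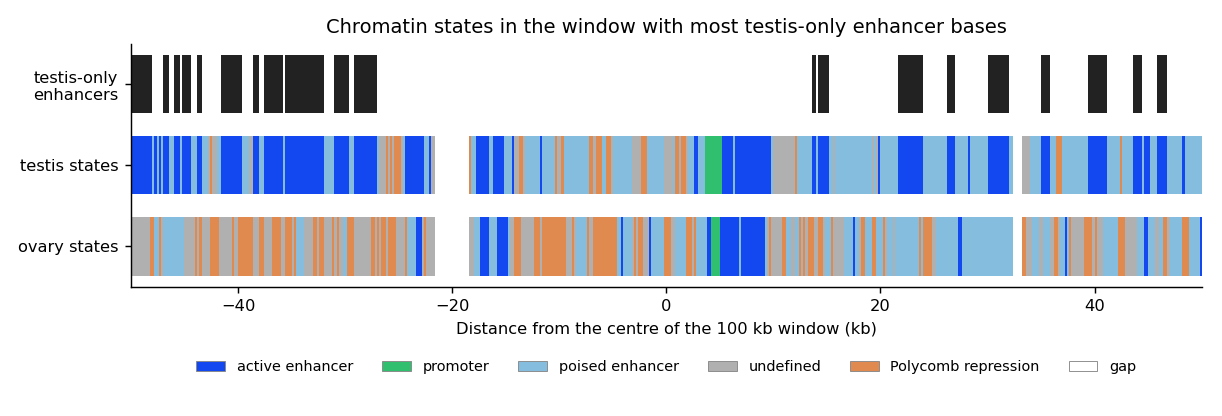
Chromatin states of the window with most testis-only enhancer bases, by distance in kb from its centre, with the testis-only enhancers above the testis track and the ovary track at the bottom. Members lie to the left and right of a promoter that both gonads share, and below them the ovary track shows poised, undefined and Polycomb state. White blocks in the state tracks are gap.

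The adjoining window, chr5:103000001-103100000, came second with 19800 bp in members. Its active enhancer share was 26.8% in the testis and 4.2% in the ovary, and its Polycomb share 11.2% and 35%. The third, chr19:17800001-17900000, lay within the group of 27 and was active over 46% in the testis and 18% in the ovary. Then came chr13:24700001-24800000, active over 41.8% and 16.8%, and chr2:78800001-78900000, active over 26.4% and 5.4% in the same order. At chr17:14400001-14500000 the Polycomb share was highest among the 10 windows, 17.2% in the testis and 50.8% in the ovary, and active state covered 31.6% and 7.2%. This window also held bivalent promoter over 1.2% in the testis and 4.4% in the ovary.

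The remaining windows by this rank differed among themselves. On chromosome 7, chr7:141300001-141400000 held 15 members and no ovary-only enhancer, with 37.6% active state in the testis and 14.4% in the ovary. At chr1:120800001-120900000 13 members stood beside 11 shared enhancers, and active state took 36.2% and 21%. At chr13:64100001-64200000 active state took 39.8% in the testis and 4.8% in the ovary, and 64.2% of the member bases were poised in the ovary. The tenth, chr17:30500001-30600000, was active over 44.8% and 32.8%, with 10 testis-only, 6 ovary-only and 13 shared enhancers. Promoter state was present in the testis and missing in the ovary in 5 of the 10 windows. The share of such windows among all windows was not computed, so this count has no level to be read against. Among these 5 its share in the testis was largest at chr1:120800001-120900000, with 1.4%, and at chr13:24700001-24800000 and chr13:64100001-64200000, with 1.2% each. It was smallest at chr2:78800001-78900000 and chr17:30500001-30600000, with 0.2% each. All 10 windows were ranked on the difference that is then described, so large values follow from the choice.

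The 10 longest members measured between 4600 and 6200 bp. The longest, chr4:10857401-10863600, was 87.1% poised in the ovary, 16.2 kb from the nearest promoter or bivalent promoter and 3.0 kb from active ovary state. Next came chr1:193339001-193344200, of 5200 bp and 61.5% poised, and chr15:98668401-98673600, of 5200 bp and 92.3% undefined. On the same chromosome chr15:35214201-35219200, of 5000 bp, was 56% poised and 28% Polycomb. Thus even members of similar length met different ovary states.

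Among those that measured 4800 bp, chr8:129079001-129083800 was 83.3% poised in the ovary, chr1:120883801-120888600 was 50% poised and 29.2% Polycomb, and chr10:38692601-38697400 was 66.7% undefined. Of the same length, chr8:4328601-4333400 was 95.8% undefined. It adjoined active ovary state and lay 2.4 kb from a promoter or bivalent promoter, close to the limit of the rule. The remaining pair, of 4600 bp, were chr1:84776001-84780600, 73.9% undefined, and chr13:64174601-64179200, 73.9% poised. For 5 of the 10 the nearest testis promoter had no promoter base in the ovary. That share was 41.8% over all members and 42.8% over those of 1000 bp or longer, so the count of 5 does not set these 10 apart.

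The 3 longest members in the Polycomb class showed the opposite end of the ovary states. At chr9:40483001-40487200 an active testis enhancer of 4200 bp was 57.1% Polycomb and 33.3% poised in the ovary, 7.4 kb from active ovary state. At chr17:14461201-14465200, inside the window with the highest Polycomb share, 4000 bp were 70% Polycomb and 30% poised. At chr10:124473001-124476600, 3600 bp were 55.6% Polycomb and 33.3% undefined. The nearest testis promoter of the first was promoter in the ovary, and those of the other two were not. Over the whole Polycomb class the nearest testis promoter lacked promoter state in the ovary for 46.4% of members.

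Values on either side of the limits of the rule were as follows. The 21625 members of 400 bp were 51.9% poised in the ovary, and the 31196 segments of 200 bp that met the other criteria were 55.7% poised. Members up to 2.5 kb from a promoter or bivalent promoter numbered 1011 and were 45.4% poised, and 1498 segments between 1.5 and 2 kb, which the rule left out, were 48.0% poised. At the limit on overlap, the 7247 members that adjoined active ovary state without sharing a base were 65.9% poised, and the 12606 testis enhancers counted as shared on 200 bp of active ovary state were 52.5% poised, with the active bases in the total. The limit on length moved the count most: with no minimum 88127 segments were testis-only, and at 1000 bp or longer 13645 were, 20.4% of distal testis enhancers of that length.

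The same rule was applied to the mole, where the testis was set against the ovarian part of the ovotestis on the 19 scaffolds of at least 1 Mb. The stage and the tissue pair differ from the mouse and the depth is unknown, so the values stand side by side without a comparison. In the mole 19965 of 40704 distal testis enhancers (49.0%) shared no active base with the ovarian part, with a median length of 1200 bp. In the opposite direction 11842 of 33965 (34.9%) were found in the ovarian part only. Of the bases of the testis-only enhancers of the mole 83.9% were poised in the ovarian part and 2.17% were Polycomb. Of all bases on these scaffolds 22.5% were poised and 8.15% Polycomb in the ovarian part. Polycomb state covered 7.99% of the mole testis in segments with a median of 2200 bp, and the mouse values were 25.5% and 400 bp.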

How the data were processed

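ChIP-seq of 4 histone marks was done in mole and mouse gonads. The deposited tables hold chromatin state names per segment, which the authors derived from the combined marks, with no counts or scores. Per the file headers EpiCSeg made the mouse tables, in a version that is not given in the sources used here. STAR 2.6.1d and build mm9 stand in the submitters' processing notes. One segmentation per gonad was deposited, so depth and replicate error are unknown. Such calls can break or join near a state boundary, which moves lengths and overlaps.

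Segments were laid out in bins of 200 bp (Python 3.11.15, NumPy 2.4.6, pandas 2.3.3), and distances run from edge to edge. The interval code was tested on simulated segmentations. Shares carry Wilson 95% intervals. Windows of 100 kb were tiled from the first base. Named are the 10 longest members, the 10 windows with most member bases and the 3 longest members of the Polycomb class. That class was set at over 50% of bases after the data had been seen. The members and lists were chosen with earlier results of these data known. The planned gene lists, motifs and sequences were left out, because no mouse genome or annotation was used here. Neither the mole gene models nor the table of the testicular part was used.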

Additional observations from a re-analysis of the deposited data

Results flagged for a closer look

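Chromosome X lies outside the rule and stood apart from chromosomes 1 to 19. With the same criteria 76.7% of its 1563 distal testis enhancers had no active ovary base [74.6 to 78.7], and 62.4% of its 862 distal ovary enhancers had no active testis base [59.1 to 65.6]. Of the bases of the 1199 testis-only segments on X, 51.9% were poised, 40.03% Polycomb and 8.09% undefined in the ovary. Polycomb state covered 31.4% of X in the testis and 50.8% in the ovary, and active enhancer state 1.47% and 0.886%. No control sample sets a level for these values, and the difference from the other chromosomes was not tested.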

How the results depend on the processing

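Each of 5 results was recomputed under 7 alternatives, the last added after seeing the data. The count of testis-only enhancers was 88127 with no minimum length, 13645 at 1000 bp or longer and 35465 with no active ovary base within 1 kb. In the order no minimum length, at least 1000 bp, any distance from promoters, more than 10 kb from promoters, no active ovary base within 1 kb, testis segments joined across 200 bp, and only ovary segments of at least 400 bp counted as active, the testis-only share was 44.3%, 20.4%, 35.4%, 42.0%, 23.3%, 38.1% and 40.4%. In that order the poised share of member bases was 47.1%, 41.5%, 46.3%, 46.4%, 41.2%, 45.5% and 47.0%. The share with another member within 12500 bp was 75.6%, 26.8%, 65.7%, 61.3%, 52.0%, 58.5% and 65.9%. The share whose nearest testis promoter was testis-only was 42.8% at 1000 bp or longer, 42.6% at more than 10 kb and 43.7% with no active ovary base within 1 kb. A change in length or distance limit changes by construction which segments enter. The poised share stayed between 41.2% and 47.1% under these alternatives. No paired analysis was possible because the mouse tables hold 1 segmentation per gonad and no replicate. The depth is unknown, so it cannot be said which bins lack a state through low coverage.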

Other observations

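Across 23439 windows of 100 kb the number of testis-only enhancers went with that of ovary-only enhancers (Spearman's rho 0.369, Pearson's r 0.257) and of shared enhancers (0.479 and 0.308). Over 2222 windows of 1 Mb the values were 0.591 and 0.516 for ovary-only and 0.664 and 0.543 for shared enhancers. The windows share libraries, so these values describe the genome in these segmentations only.

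A few members lay far from any active ovary chromatin. They were chosen after their values had been seen. At chr17:78009201-78010000 a member of 800 bp was 396.8 kb from the nearest active ovary bin and 75% poised in the ovary. At chr14:53739201-53739600 a member of 400 bp was 366.6 kb away and undefined throughout. At chr12:22812201-22812600 a member of 400 bp was 302.2 kb from active ovary state, 1262.4 kb from any promoter or bivalent promoter and wholly poised in the ovary. Of all members, 177 (0.311%) lay more than 100 kb from active ovary chromatin.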
